A study of Mus musculus with 8 samples.

Results

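The genes described here are 10 members of the MHC class I antigen presentation pathway: the heavy chains H2-K1 and H2-D1, the light chain B2m, the peptide transporter and loading genes Tap1, Tap2 and Tapbp, the immunoproteasome subunits Psmb8, Psmb9 and Psmb10, and the regulator Nlrc5. They were chosen by name and found among the 47069 gene rows of the count tables through GENCODE M21. All 10 had counts in every library and passed the filter on low counts, which left 14263 genes to test.

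RNA was sequenced from GFP-positive acute myeloid leukaemia cells driven by the MLL-AF9 fusion, sorted from leukaemic mice whose strain is given as C57BL/7 and whose tissue is given as bone marrow. The cells carried TetO-Klf4, a Klf4 transgene that doxycycline turns on, and the series asks how expression changes once Klf4 is induced in leukaemia cells. The 4 groups were 0h, 6h, 12h and 24h, with 2 libraries each, and all of them, 0h included, carried both MLL-AF9 and the transgene. What started the clock is not in the labels, nor is whether the 2 libraries of a time are from different animals. The p-values therefore describe the spread between libraries only, and that spread may be technical.

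Class I molecules show peptides from inside the cell to CD8 T cells, and their absence from the surface can release NK cells from inhibition. Proteasomes cut proteins into peptides, the TAP transporter pumps these into the endoplasmic reticulum, and tapasin holds an empty heavy chain and B2m dimer close to TAP until a peptide binds. The immunoproteasome subunits replace the standard catalytic subunits, and NLRC5 is a transactivator of class I promoters. Leukaemia cells can lower class I, and interferon raises most of these genes together.

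The RefSeq promoters of the genes (build GRCm38.p6) show what several of them share. A promoter entry was matched for 8 of the 10 members, and Tap2 and Nlrc5 were not matched. The stretch before the start of H2-K1 (chr17:34000348-34000467, minus strand) and that before B2m (chr2:122147567-122147685, plus strand) are printed because they hold the motifs that class I promoters are known for. Capitals mark, in order, GGGANTNCC (a kappa B-type motif, H2-K1 alone of these), the reverse strand of GAANNGAAA (an interferon response type motif, H2-K1 alone of these), TGACG (the core of a CREB-type motif) and CCAAT read on the reverse strand (an NF-Y-type motif).
H2-K1 promoter: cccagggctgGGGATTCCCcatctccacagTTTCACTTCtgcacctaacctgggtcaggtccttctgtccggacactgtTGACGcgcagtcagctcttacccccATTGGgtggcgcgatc
B2m promoter: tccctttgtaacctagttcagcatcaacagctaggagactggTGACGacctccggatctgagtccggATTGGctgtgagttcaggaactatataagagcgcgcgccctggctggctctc

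The heavy chain genes were nearly identical in the upstream block and less so in the block nearer the start. The blocks lie at chr17:34000429-34000458 and chr17:34000359-34000388 (minus strand) for H2-K1, and at chr17:35262923-35262952 and chr17:35262993-35263022 (plus strand) for H2-D1, where GENCODE annotates an exon of H2-D1. They are set side by side to show that 29 of 30 bases matched upstream and 23 of 30 in the start-side block. The capitals mark the same motifs. The blocks were cut to hold these motifs in both genes, and the upstream block holds more motif bases. Part of the identity, and of the contrast between the blocks, therefore follows from that choice.
H2-K1 upstream block: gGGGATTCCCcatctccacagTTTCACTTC
H2-D1 upstream block: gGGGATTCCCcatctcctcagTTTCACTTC
H2-K1 start-side block: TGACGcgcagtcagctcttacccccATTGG
H2-D1 start-side block: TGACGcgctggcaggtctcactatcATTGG

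Over the RefSeq promoter entries of all genes (32851 windows from 250 bases before to 50 after each start, both strands searched), GGGANTNCC was found in 3.95%, GAANNGAAA in 7.52%, TGACG in 20.8% and CCAAT in 37.4%. Of the 8 matched members, H2-K1 and H2-D1 held the first 2 motifs. TGACG was found in H2-K1, H2-D1, B2m, Tap1 and Psmb9, and CCAAT in the same 5 and Tapbp. GGGNGTGG, a motif of the kind bound by Klf factors, was in Tapbp alone among the members and in 17.6% of all windows. Tap1 and Psmb9 are transcribed away from each other from RefSeq starts with 225 bases between them, whereas in GENCODE they overlap by 212 bases. Their TGACG is the same one (chr17:34187456-34187485, plus strand), where GENCODE annotates an exon of Psmb9. It is shown here with the motif in capitals.
Tap1 to Psmb9 block: tgcccagagacaggTGACGacagagggtcc
A match is a description of letters and not evidence of a bound site.

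Klf4 separated 0h from the later times in every library. In CPM, which are counts divided by the library total after TMM scaling, the 0h libraries had 2.71 and 4.42, the 6h libraries 152 and 151, the 12h libraries 114 and 111, and the 24h libraries 76.8 and 78.7. The libraries held 20394546 to 26041347 gene counts, so 3 counts equal 0.115 to 0.147 CPM. The share of reads in no annotated gene was 5.25% to 5.70% in the 0h libraries, 5.81% to 6.60% in the 6h libraries, 8.31% to 8.95% in the 12h libraries and 9.04% to 9.27% in the 24h libraries, and its part in the results was not tested. All 9 leukaemia cell markers were present (summed 1886 to 2062 CPM). Defining markers of T cells (Cd3e, Cd3g), NK cells (Ncr1, Klra8, Gzma) and B cells (Ms4a1, Pax5) had 0 counts in every library.

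Most of the class I pathway was slightly lower after 0h, and B2m was not called lower. At 24h, 8 of the 10 members were 8.43% to 23.6% lower, Psmb10 the most, with Tap2, Tap1, H2-K1, Psmb8 and Psmb9 between 14.9% and 18.6% lower. B2m and Nlrc5 were not called. A call here means an adjusted p under 0.05 over all genes tested, in edgeR's quasi-likelihood test. In bulk RNA, fewer cells of a type and less RNA per cell cannot be told apart, and all values are relative to the total of each library.

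At 6h, 4 of 10 members had fallen (H2-K1, Tap2, Psmb8 and Psmb9), where 18.3% of all genes were called and 8.58% were called lower. At 12h, 7 had fallen (H2-K1, H2-D1, Tap1, Tap2, Psmb8, Psmb9 and Psmb10), against 43.7% of genes called and 21.6% called lower. At 24h the 8 were those 7 and Tapbp, against 50.9% of genes called and 24.8% called lower. No member was called higher at these times by edgeR or DESeq2, where 9.74%, 22.1% and 26.1% of all genes were called higher by edgeR, and unadjusted p-values under 0.05 for a higher level numbered 0, 0 and 1 (B2m at 24h). The 3 comparisons share the same 0h libraries.

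The median size of these changes was not above that of all genes tested. The median log2 fold change of the members was -0.08 at 6h, -0.20 at 12h and -0.24 at 24h, while that of all genes tested was -0.00, 0.00 and 0.02. The median size of change, without sign, was 0.08, 0.20 and 0.24 for the members and 0.13, 0.21 and 0.25 for all genes. All genes tested include genes with far fewer counts than most members. No set matched for level was compared, here or for the shares called. No member passed edgeR's test against a fold of 1.5 in any comparison, and 0 had an unadjusted p under 0.05 in it. Both later libraries lay under both 0h libraries for 5 members at 6h, 8 at 12h and 8 at 24h, where 29.0%, 35.3% and 36.0% of all genes did so.

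**Figure D1:**
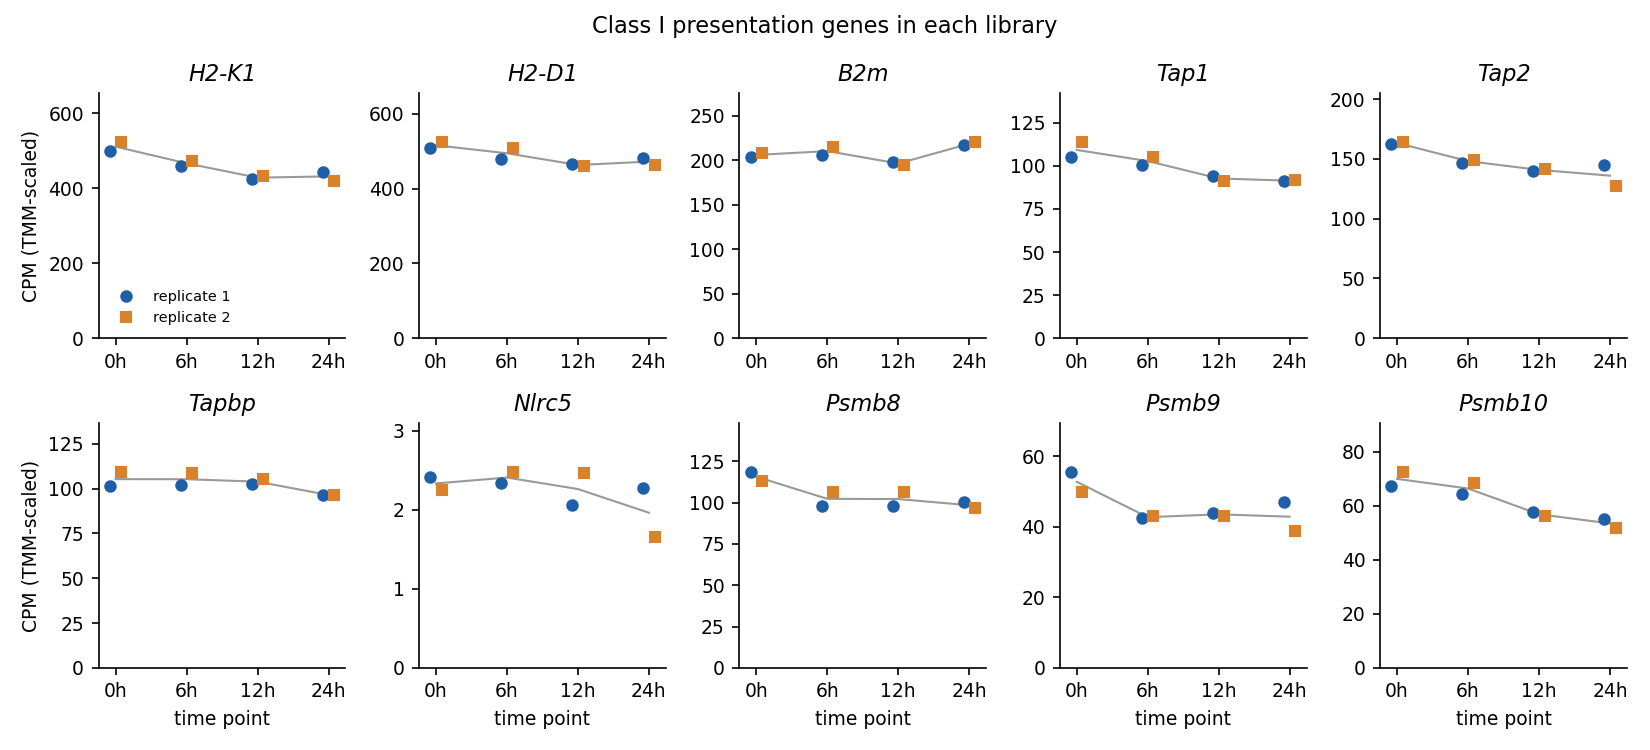
Level of each member (CPM, y axis from 0) in each library against time point; circles are replicate 1, squares replicate 2, and the line joins the means. H2-K1 sits between 500.3 and 522 at 0h and between 421 and 443 at 24h, while the B2m libraries at 24h, 217 and 220, lie above those at 0h.

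H2-K1, which encodes the K heavy chain (chr17:33996017-34000347), fell at each time. It had 500.3 and 522 CPM in the 0h libraries, 459.8 and 474 in the 6h libraries, 425 and 432 in the 12h libraries and 443 and 421 in the 24h libraries. All later libraries lay under both 0h libraries, and the 12h and 24h libraries overlapped. The log2 fold change was -0.13 at 6h (SE 0.04, adjusted p = 0.0213), -0.26 at 12h (SE 0.04, adjusted p = 4.25e-06) and -0.24 at 24h (SE 0.04, adjusted p = 5.95e-06). The call at 6h was lost without 0h replicate 2 (adjusted p = 0.271) or 6h replicate 1 (adjusted p = 0.0837), with library totals in place of TMM (adjusted p = 0.0878), and with the 4 libraries of the comparison alone (adjusted p = 0.0707).

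H2-D1, the D heavy chain (chr17:35262730-35267499), was present at about the level of H2-K1 and had smaller log2 fold changes. It had 508 and 524 CPM in the 0h libraries, 479.7 and 509.9 in the 6h libraries, 466 and 461 in the 12h libraries and 482 and 463 in the 24h libraries. The 6h libraries overlapped those of 0h, and the 12h and 24h libraries did not. The log2 fold change was -0.06 at 6h (SE 0.04, adjusted p = 0.352), -0.16 at 12h (SE 0.04, adjusted p = 0.00242) and -0.13 at 24h (SE 0.04, adjusted p = 0.0101). The 24h call was lost without 0h replicate 2 (adjusted p = 0.104), without 24h replicate 2 (adjusted p = 0.101), and with library totals (adjusted p = 0.180), which also ended the 12h call. At 6h the correction that centres the mean gene called it lower (-0.14, adjusted p = 0.000829).

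The heavy chains have close copies, so reads could have been lost or shared between them. Of the 50-base windows of the longest transcript, 8.11% in H2-K1 and 14.3% in H2-D1 were also found in a transcript of another gene. When H2-K1 and H2-D1 were added to the other H2-K, H2-D, H2-Q, H2-T and H2-M genes (32 genes, of whose counts the pair made up 84.7%), the log2 fold change of the sum was -0.08 at 6h, -0.15 at 12h and -0.15 at 24h. For the sum of H2-K1 and H2-D1 alone it was -0.10, -0.20 and -0.18. The count ratio of H2-K1 to H2-D1 was 0.991 ± 0.0095, 0.944 ± 0.021, 0.925 ± 0.019 and 0.914 ± 0.0076 (SD, n = 2) in the order of time.

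B2m, the light chain that class I needs to reach the surface (chr2:122147686-122153083), was not called lower than 0h at any time. A difference from the heavy chains was not tested. Between 6h and 12h the log2 fold change of B2m was -0.10 (not called), beside -0.10 for H2-D1 (not called) and -0.12 for H2-K1. B2m had 204 and 208 CPM in the 0h libraries, 206 and 215 in the 6h libraries, 198 and 195 in the 12h libraries and 217 and 219.9 in the 24h libraries. The 12h libraries were the lowest of the 8 and the 24h libraries the highest. Its log2 fold change against 0h was 0.03 at 6h (SE 0.04, adjusted p = 0.678, but 0.15 and 0.20 and called with the GC and length corrections), -0.07 at 12h (SE 0.04, adjusted p = 0.185, but 0.16 with a GC and length correction that keeps the level of the library) and 0.09 at 24h (SE 0.04, adjusted p = 0.0817). The 24h value was called with library totals, with a stricter filter and with both GC and length corrections, under which it reached 0.34. B2m has the lowest GC content of the members, 41.2% of its longest transcript, where the others have 52.5% to 57.1%.

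Between 12h and 24h B2m rose, with a log2 fold change of 0.15 (SE 0.04, adjusted p = 0.0153), the only member called in that comparison. There 6.46% of all genes were called and 3.41% were called higher. DESeq2 did not call it (adjusted p = 0.0564), nor did edgeR without 12h replicate 1 (adjusted p = 0.120), 12h replicate 2 (adjusted p = 0.182) or 24h replicate 2 (adjusted p = 0.128). Per kilobase of exon, the ratio of B2m to the sum of H2-K1 and H2-D1 was 0.640 ± 0.0072, 0.697 ± 0.0016, 0.701 ± 0.0080 and 0.769 ± 0.032 (SD, n = 2) in the order of time. All 6 later libraries had a higher ratio than either 0h library.

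**Figure D2:**
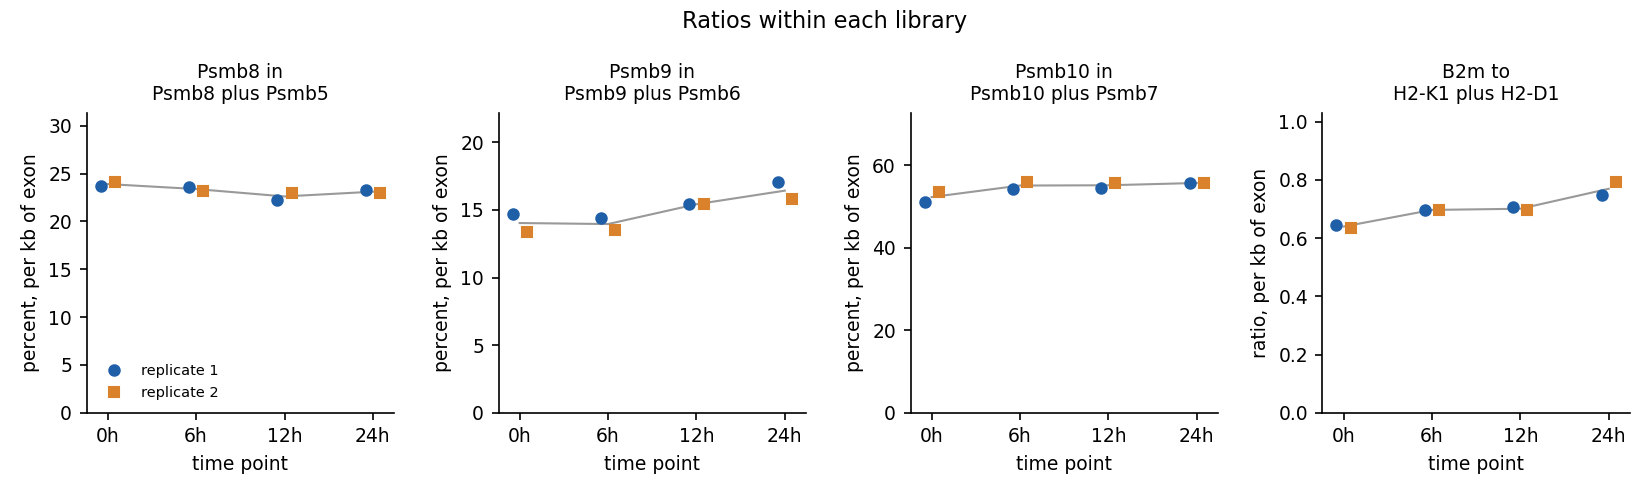
Ratios within a library against time point, as counts per kilobase of exon (y axis from 0): the immunoproteasome subunit as a percentage of itself plus its standard counterpart, and B2m over H2-K1 plus H2-D1; circles are replicate 1, squares replicate 2, and the line joins the means. The B2m ratio goes from 0.640 at 0h to 0.769 at 24h, and the Psmb8 share stays between 22.2% and 24.1% in all libraries.

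Tap1 and Tap2 encode the 2 chains of the peptide transporter and fell together at 12h and 24h. Tap1 (chr17:34187553-34197225) had 105 and 114 CPM in the 0h libraries, 101 and 105 in the 6h libraries, 94.1 and 91.4 in the 12h libraries and 91.1 and 91.7 in the 24h libraries. Tap2 (chr17:34203527-34216321) had 163 and 164 CPM in the 0h libraries, 147 and 149 in the 6h libraries, 139.9 and 142 in the 12h libraries and 145 and 127 in the 24h libraries. Every later library of either gene was under both of its 0h libraries, 6h replicate 2 of Tap1 only just, and the 2 Tap2 libraries at 24h lay on both sides of those at 12h.

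For Tap1 the log2 fold change was -0.09 at 6h (SE 0.05, adjusted p = 0.228), -0.24 at 12h (SE 0.05, adjusted p = 0.000137) and -0.26 at 24h (SE 0.05, adjusted p = 3.00e-05). For Tap2 it was -0.14 at 6h (SE 0.05, adjusted p = 0.0346), -0.21 at 12h (SE 0.05, adjusted p = 0.000368) and -0.26 at 24h (SE 0.05, adjusted p = 1.64e-05). At 6h both GC and length corrections called Tap1 lower, at -0.18 (adjusted p = 0.00176) and -0.24 (adjusted p = 4.15e-05). The 6h call of Tap2 stood in 9 of 18 fits. It was lost with DESeq2 (adjusted p = 0.104), library totals (0.134), no filter (0.0555) and the 4 libraries of the comparison alone (0.0525), and without 0h replicate 1 (0.116), 0h replicate 2 (0.170), 6h replicate 1 (0.0986), 12h replicate 1 (0.0527) or 12h replicate 2 (0.0521), all adjusted p-values. The exons of Tap1 and Psmb9 overlap by 212 bases, and exons of other genes cover 18.5% of the exon bases of Tap2. Whether the counting used strand is not given in the sources used here, so reads in such stretches are uncertain.

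Tapbp encodes tapasin, the bridge between TAP and the heavy chain (chr17:33915899-33929292), and was called lower at 24h alone against 0h in the TMM-scaled fit. It had 101 and 109 CPM in the 0h libraries, 102 and 109 in the 6h libraries, 102 and 105 in the 12h libraries and 96.7 and 96.2 in the 24h libraries. The 6h and 12h libraries lay among those of 0h and the 24h libraries under all of them. The log2 fold change was 0.00 at 6h (SE 0.05, not called, but -0.14 with a GC and length correction that centres the mean gene), -0.02 at 12h (SE 0.05, adjusted p = 0.774) and -0.13 at 24h (SE 0.05, adjusted p = 0.0286). At 12h both GC and length corrections called it lower, at -0.14 (adjusted p = 0.00574) where the level of the library is kept and at -0.22 (adjusted p = 3.44e-05) where the mean gene is centred. The 24h call was lost with DESeq2 (adjusted p = 0.0633), a stricter filter (0.0746) or library totals (0.286), and when 0h replicate 2 was left out (0.355) or either 24h library was (0.0660 and 0.0831 for replicates 1 and 2). Exons of other genes cover 29.0% of its exon bases.

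**Figure D3:**
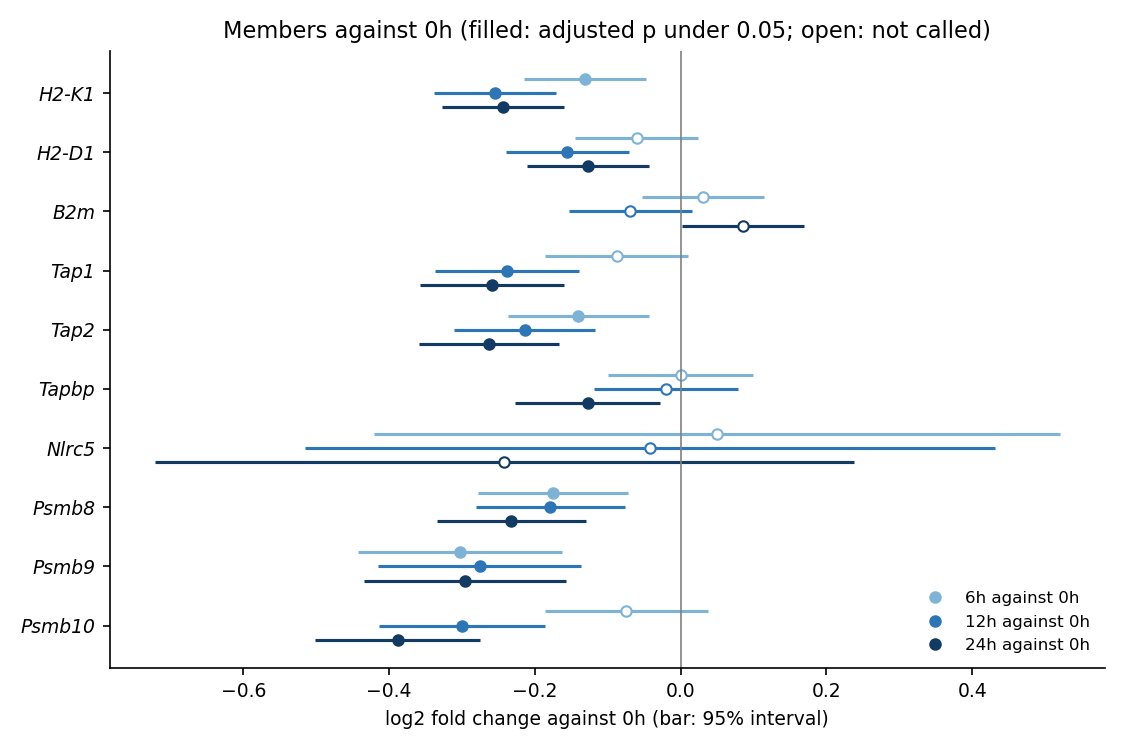
Log2 fold change of each member against 0h (x axis) with its 95% interval, for 6h, 12h and 24h from light to dark; filled points are called at an adjusted p under 0.05 and open points are not. The 24h points of 8 members are filled and left of 0, B2m lies at 0.09, and the interval of Nlrc5 runs from -0.72 to 0.24.

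The immunoproteasome subunits all fell, and a difference in timing between them was not tested. Psmb8, the inducible counterpart of Psmb5 (chr17:34197721-34201454), had 118 and 113 CPM in the 0h libraries, 98.0 and 106 in the 6h libraries, 97.9 and 106 in the 12h libraries and 100.1 and 96.6 in the 24h libraries. Psmb9, the counterpart of Psmb6 (chr17:34181987-34187764), had 55.5 and 50.01 CPM in the 0h libraries, 42.5 and 43.0 in the 6h libraries, 44.1 and 43.0 in the 12h libraries and 46.9 and 38.8 in the 24h libraries. Both were under their 0h libraries from 6h on, and neither moved in a called way after that.

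Psmb10, the counterpart of Psmb7 (chr8:105935735-105938444), had 67.4 and 72.4 CPM in the 0h libraries, 64.3 and 68.3 in the 6h libraries, 57.6 and 56.0 in the 12h libraries and 54.9 and 51.9 in the 24h libraries. Its 6h libraries overlapped those of 0h, and its 12h and 24h libraries did not. At 6h the correction that centres the mean gene called it lower (-0.14, adjusted p = 0.0273). Between 6h and 12h it fell by 0.23 on the log2 scale (SE 0.06, adjusted p = 0.00343), a call lost without 6h replicate 2 (adjusted p = 0.0588) or 12h replicate 2 (adjusted p = 0.0670).

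The log2 fold change of Psmb8 was -0.18 at 6h (SE 0.05, adjusted p = 0.0123), -0.18 at 12h (SE 0.05, adjusted p = 0.00400) and -0.23 at 24h (SE 0.05, adjusted p = 0.000204). That of Psmb9 was -0.30 (SE 0.07, adjusted p = 0.00153), -0.28 (SE 0.07, adjusted p = 0.00125) and -0.30 (SE 0.07, adjusted p = 0.000426), in the same order. That of Psmb10 was -0.07 (SE 0.06, adjusted p = 0.396), -0.30 (SE 0.06, adjusted p = 3.86e-05) and -0.39 (SE 0.06, adjusted p = 3.58e-07). The Psmb8 call was lost without 0h replicate 1 at 6h (adjusted p = 0.156) and 12h (0.0697), without 6h replicate 1 at 6h (0.165), without 12h replicate 1 at 12h (0.131), and with library totals at 6h (0.0555) and 12h (0.0793). The Psmb9 call was lost without 0h replicate 1 at 6h (0.0695) and 12h (0.0547), and without 24h replicate 2 at 24h (0.0531), again as adjusted p-values.

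The standard catalytic subunits fell as well. At 24h the log2 fold change was -0.17 for Psmb5 (SE 0.05, adjusted p = 0.00678), -0.57 for Psmb6 (SE 0.05, adjusted p = 2.42e-12) and -0.59 for Psmb7 (SE 0.05, adjusted p = 1.15e-12). The Psmb5 call was lost with library totals and without 0h replicate 1. In counts per kilobase of exon, Psmb8 made up 23.9% ± 0.28 of itself plus Psmb5 at 0h and 23.1% ± 0.25 at 24h (SD, n = 2). Psmb9 made up 14.0% ± 0.91 of itself plus Psmb6 at 0h and 16.4% ± 0.88 at 24h, and Psmb10 52.3% ± 1.8 of itself plus Psmb7 at 0h and 55.7% ± 0.055 at 24h. The 24h libraries were above both 0h libraries for Psmb9 and Psmb10 and under both for Psmb8, and 2 libraries against 2 cannot go below p = 0.333 in a two-sided exact permutation test. The level of these shares depends on the length used: with the longest transcript as length they were 35.8%, 9.66% and 54.3% at 0h.

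Nlrc5, the transactivator of class I genes (chr8:94434356-94527272), was near the limit of what the depth could resolve. It had 41 to 63 counts per library, or 2.41 and 2.25 CPM in the 0h libraries, 2.34 and 2.48 in the 6h libraries, 2.06 and 2.46 in the 12h libraries and 2.27 and 1.65 in the 24h libraries. The libraries of all later times overlapped those of 0h. Its log2 fold change was 0.05 at 6h (SE 0.23, adjusted p = 0.917), -0.04 at 12h (SE 0.23, adjusted p = 0.902) and -0.24 at 24h (SE 0.24, adjusted p = 0.411). The 95% interval at 24h, from -0.72 to 0.24, takes in both a fall of the size seen for the heavy chains and a rise, so no difference was detectable at this depth.

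Between 6h and 12h, 3 members fell further: H2-K1 with a log2 fold change of -0.12 (SE 0.04, adjusted p = 0.0296), Tap1 with -0.15 (SE 0.05, adjusted p = 0.0248) and Psmb10 as above. There 20.7% of all genes were called and 9.78% were called lower. H2-D1 (adjusted p = 0.0995) and B2m (adjusted p = 0.0817) had an unadjusted p under 0.05 and were not called. Leaving out 6h replicate 2, or either 12h library, ended the H2-K1 and Tap1 calls (adjusted p from 0.0687 to 0.205), and the count was 0 without 6h replicate 2 or 12h replicate 2 and 5 without 6h replicate 1. Between 12h and 24h no member was called lower by edgeR, which called 3.04% of all genes lower, or by DESeq2, and 1 had an unadjusted p under 0.05 (Tapbp, log2 fold change -0.11). In a test of any difference over the time course 8 members were called, all but Tapbp (adjusted p = 0.0662) and Nlrc5 (adjusted p = 0.676), where 52.8% of all genes were.

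Levels between genes can be compared only per length. Per kilobase of exon at 0h, B2m stood at 239 ± 3.4 CPM, H2-D1 at 200.1 ± 4.2 and H2-K1 at 174 ± 5.3 (SD, n = 2). A second tier ran from Tap2 at 43.2 ± 0.17 through Psmb10 at 41.0 ± 2.1, Psmb8 at 34.2 ± 1.2, Tapbp at 29.0 ± 1.5 and Tap1 at 19.95 ± 1.1 to Psmb9 at 14.4 ± 1.1. Nlrc5 was at 0.275 ± 0.013. Tap2 and Psmb10 differed by about the SD of Psmb10, and with the longest transcript as length H2-K1 came first at 273, followed by H2-D1 at 245 and B2m at 239. With that length Psmb8 led the second tier at 60.6, ahead of Psmb10 at 53.3, Tap2 at 47.4 and Tapbp at 36.3.

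Across the 8 libraries, which share the time course and its depth, the members' log2 CPM correlated to very different degrees. Pearson's r was 0.969 between Tap1 and Psmb10 and 0.953 between H2-K1 and H2-D1, the highest of the 45 pairs. For pairs with B2m it ran from -0.42 to 0.22, for Tapbp and Psmb9 it was 0.206, and for Nlrc5 it was 0.393 with Tap1, 0.457 with H2-D1 and 0.502 with H2-K1. Of 8720 other protein-coding genes, the closest to H2-K1 were Dera (r = 0.992), Ndufa9 (0.990) and Ppm1f (0.989), and the closest to Psmb8 were Actr1b (0.974), Laptm4a (0.970) and Rpa3 (0.968). The closest to Nlrc5 were Tbccd1 (0.936), Cyth4 (0.930) and Sap30l (0.923). Picking the highest of 8720 correlations over 8 libraries gives high values in any case, and likeness was not tested. Nlrc5 had only 41 to 63 counts per library. It was not called in edgeR's test of any difference over time (adjusted p = 0.676). Whether its closest genes share a pattern over time with it cannot be told at this depth.

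The other genes of class I folding, loading and trimming were mostly lower too. Of 18, 9 fell and 1 rose at 6h, 12 fell and 2 rose at 12h, and 12 fell and 2 rose at 24h. Of all genes, 8.58%, 21.6% and 24.8% were called lower at these times and 9.74%, 22.1% and 26.1% called higher. The list's median log2 fold change was -0.26 at 24h, where that of all genes tested was 0.02. Calreticulin (Calr), the chaperone of the loading complex, fell most, from 3515 ± 129 CPM at 0h to 1967 ± 23.7 at 24h (log2 fold change -0.84, SE 0.04). Its partner disulphide isomerase Pdia3 fell by 0.34, and the translocon subunits Sec61b and Sec61a1, through which proteins enter the endoplasmic reticulum, fell by 0.52 and 0.32 on the log2 scale. Those 4 genes were called in all 18 fits other than the test against a fold of 1.5.

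Proteasome activators and assembly factors were called lower by edgeR in 5, 8 and 9 of 10 cases at 6h, 12h and 24h. By DESeq2 these counts were 2, 8 and 9. Neither method called any of the list higher, and 0 had an unadjusted p under 0.05 for a higher level. For all genes the shares called lower by edgeR at these times were 8.58%, 21.6% and 24.8%, and those called higher 9.74%, 22.1% and 26.1%. The edgeR count at 24h stayed at 9 when the mean gene was centred for GC and length, but was 6 when such a correction kept each library's level. The median of the list at 24h was -0.33, and it was -0.28 when 24h replicate 2 was left out. The assembly factor Pomp, which helps build new proteasomes and favours immunoproteasomes, had a log2 fold change of -0.46 (SE 0.05, adjusted p = 1.33e-10) at 24h. The regulator subunits Psme1 and Psme2, which form the interferon-inducible PA28 cap, had -0.24 and -0.38, and the assembly chaperone Psmg2 had -0.32, a call lost with a GC and length correction that keeps the level of the library.

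Other class I heavy chains and class I-like molecules were called at about the rate of all genes at 24h. Of 22 listed, 12 passed the filter on low counts, and at 24h 3 of these rose and 3 fell (1 and 0 at 6h, 3 and 1 at 12h), with a median of -0.03. Among all genes, 9.74%, 22.1% and 26.1% were called higher at 6h, 12h and 24h, and 8.58%, 21.6% and 24.8% were called lower. The list's median at 24h was above 0 under 5 alternatives, up to 0.09. DESeq2 called 0 higher and 1 lower at 24h, 1 was higher without 0h replicate 1 and 0 without 24h replicate 2, and 1 was lower without 0h replicate 2. Without 24h replicate 1, or without 24h replicate 2, 2 were lower. For a lower level at 6h, DESeq2 called 0 and 0 had an unadjusted p under 0.05. H2-T22, a nonclassical heavy chain, went from 39.0 ± 1.5 to 32.3 ± 0.74 CPM (log2 fold change -0.28, adjusted p = 0.000527). Hfe, the class I-like iron regulator, had -0.43 (adjusted p = 0.00902), while H2-T24 had 0.25 (adjusted p = 0.0141) and Fcgrt, which binds IgG, 1.08 at 0.596 ± 0.13 to 1.27 ± 0.086 CPM (adjusted p = 0.0149). The calls of Hfe, H2-T24 and Fcgrt were lost with DESeq2. That of Hfe was also lost without 0h replicate 2 or 24h replicate 1, and those of H2-T24 and Fcgrt without 0h replicate 1 or 24h replicate 2.

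Regulators of class I transcription were called about as often as genes at large at 24h. Of 18 tested genes, 2, 7 and 5 rose and 0, 3 and 3 fell at the successive times (median 0.02 at 24h). Among all genes, 9.74%, 22.1% and 26.1% were called higher at these times and 8.58%, 21.6% and 24.8% called lower. At 12h the list's share called higher was above that of all genes, and DESeq2 called 5 of the list higher there. The balance at 24h depended on scaling: 2 rose and 6 fell (median -0.05) with the correction that centres the mean gene, and 7 rose and 2 fell with library totals. DESeq2 called 3 higher, as did edgeR without 24h replicate 1, and 2 fell without 0h replicate 2. At 6h, DESeq2 also called 0 of them lower, and 0 had an unadjusted p under 0.05 for a lower level. Rel, an NF-kappa B subunit, rose by 0.42 on the log2 scale (SE 0.08, adjusted p = 3.16e-05) from 19.96 ± 0.60 to 26.8 ± 2.2 CPM. Of the NF-Y subunits, Nfya was at 0.20 (adjusted p = 0.00109), Nfyb, named after its value was seen, at 0.19 (adjusted p = 0.0121) and Nfyc at -0.28 (adjusted p = 0.000119), and Irf8 was at 0.20 (adjusted p = 0.00401). The Nfya and Irf8 calls were lost with a GC and length correction that centres the mean gene, and that of Irf8 also without 24h replicate 1.

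Genes of the interferon pathway were likewise called at about the rate of all genes at 24h. Of 15 tested genes, 2, 3 and 4 rose and 4, 6 and 4 fell at the successive times (median -0.08 at 24h). Over all genes, 9.74%, 22.1% and 26.1% were called higher at these times and 8.58%, 21.6% and 24.8% called lower. The list's share called lower was thus above that of all genes at 6h and 12h, where DESeq2 called 2 and 5 of the list lower. With the correction that centres the mean gene, 2 rose and 6 fell at 24h. DESeq2 called 2 higher and 3 lower, as did edgeR without 24h replicate 1, and 6 fell without 6h replicate 1. Ifnb1 had 0 counts in every library and Ifng 1 count in all 8 together. Receptor genes fell at 24h: Ifngr1 from 457 ± 1.5 to 362 ± 2.7 CPM (log2 fold change -0.34, SE 0.04), Ifngr2 from 47.1 ± 0.13 to 37.1 ± 1.8 (-0.34, SE 0.07) and Ifnar1 from 97.9 ± 0.73 to 80.9 ± 3.9 (-0.28, SE 0.05). Jak2, a kinase bound to the interferon gamma receptor, rose from 33.3 ± 2.8 to 52.1 ± 1.2 CPM (0.64, SE 0.07). The adjusted p-values of these 4 ran from 3.02e-10 to 3.38e-05, and all 4 were called in each of those 18 fits.

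Of the class II presentation genes, 9 were tested, and 1, 3 and 3 fell at 6h, 12h and 24h (median -0.29 at 24h, -0.13 without 24h replicate 1 and -0.14 with a stricter filter). Over all genes, 8.58%, 21.6% and 24.8% were called lower at these times. DESeq2, library totals, the replicate block, both GC and length corrections, the stricter filter and the fits without a 0h or 24h library called 2 lower at 24h. None was called higher by edgeR or DESeq2 (1 at 24h with library totals), and 0 had an unadjusted p under 0.05 for a higher level. The peptide editor H2-DMa had -0.30 and the beta chain H2-Ab1 -0.29 (both adjusted p = 0.000175), from 45.1 ± 2.5 and 45.5 ± 1.1 CPM. H2-Eb1 had -0.80 at 1.53 ± 0.18 to 0.878 ± 0.043 CPM (adjusted p = 0.0459), a call lost in 9 of 17 fits, among them each fit without a 0h or 24h library. H2-Ob was at 0.31 (adjusted p = 0.0995).

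Among surface ligands that T and NK cells read, 2, 3 and 4 of 13 tested rose and 1, 2 and 2 fell at the successive times (median -0.01 at 24h, but up to 0.16 under other settings). Beside these stand 9.74%, 22.1% and 26.1% of all genes called higher and 8.58%, 21.6% and 24.8% called lower. The count that rose at 24h was 2 with DESeq2 and without 24h replicate 2, and the count that fell was 1 with both of these, with library totals, with the stricter filter and without any of the 0h and 24h libraries. Lgals9, a galectin that binds Tim-3, a receptor on T cells, fell from 353 ± 8.2 to 281 ± 13 CPM (log2 fold change -0.33, adjusted p = 4.50e-08). Nectin2, a ligand of the NK cell receptor DNAM-1, rose from 15.5 ± 0.49 to 22.1 ± 0.59 CPM (0.51, adjusted p = 1.46e-05). Ulbp1, a ligand of NKG2D, rose from 27.6 ± 0.25 to 32.6 ± 3.6 (0.24, adjusted p = 0.00702), a call lost with DESeq2 and without 0h replicate 2 or 24h replicate 2. The T cell costimulator Cd86 was called at 0.100 ± 0.14 against 0.796 ± 0.21 CPM (adjusted p = 0.000390), of which the first is under the level of 3 counts.

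**Figure D4:**
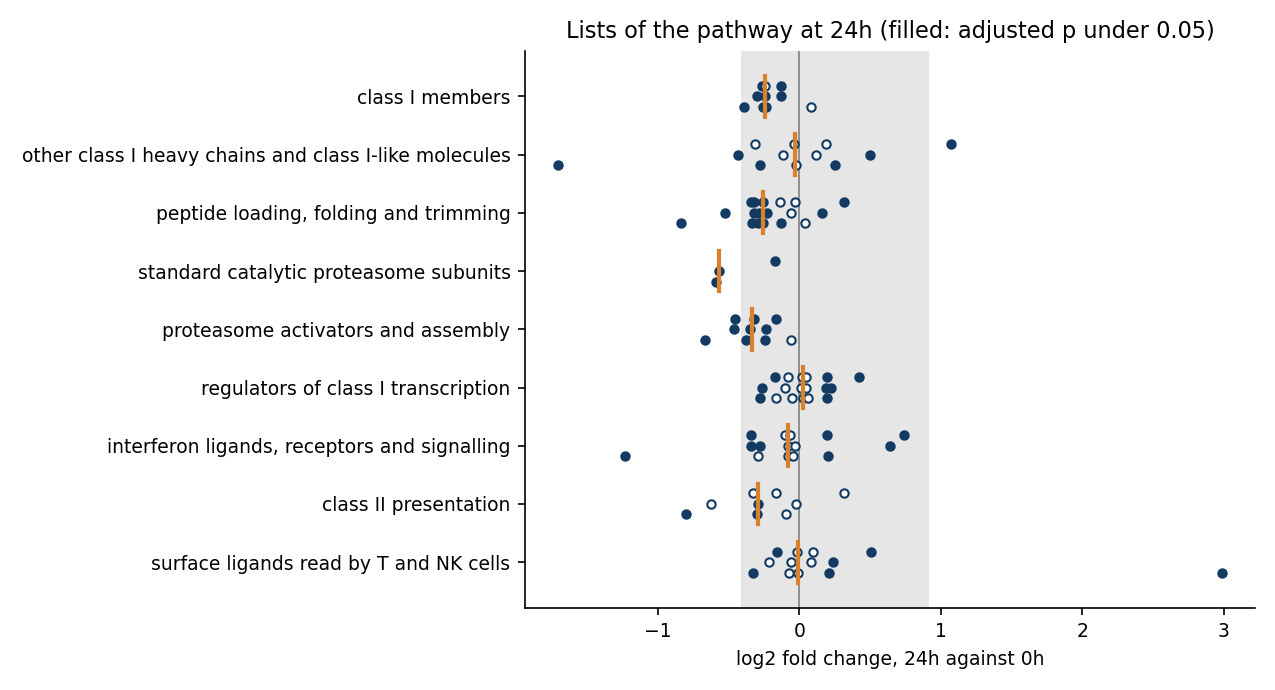
Log2 fold change at 24h against 0h (x axis) of each tested gene, by list; filled points are called at an adjusted p under 0.05, open points are not, the orange mark is the list's median and the grey band holds the middle 80% of all genes tested, from -0.41 to 0.91. The medians of the class I members, the loading genes and both proteasome lists lie left of 0, at -0.24, -0.26, -0.57 and -0.33.

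Other markers of the sorted population moved at the same time. Of the 9 leukaemia cell markers, 4 had fallen and 3 had risen at 24h, where 24.8% of all genes were called lower and 26.1% higher. Among them were the progenitor markers Cd34 (log2 fold change -1.07) and Kit (-0.23), the fusion target Meis1 (-0.24) and the myeloid integrin Itgam (0.36). Summed markers of T cells were at 5.58 to 9.95 CPM over the libraries, mostly Lck, and went from 6.68 to 7.36 at 0h to 9.80 to 9.95 at 24h. Those of NK cells went from 6.49 to 7.88 at 0h to 13.0 to 13.6 at 24h, mostly Nkg7 (log2 fold change 1.19). Those of B cells, mostly Cd79b (log2 fold change -0.56), went from 11.1 to 12.1 at 0h to 8.59 in both 24h libraries. Those of dendritic cells, mostly Flt3, went from 24.6 to 24.8 at 0h to 21.4 to 23.9 at 24h, and those of erythroid cells, mostly Hbb-bt, from 2.16 to 2.21 at 0h to 2.22 to 2.76 at 24h. Cd79a and the dendritic cell marker Zbtb46, named after their values were seen, were called higher at 24h in all 17 fits that held them, other than the test against a fold of 1.5, at 0.215 to 0.821 CPM and 0.0941 to 0.659 CPM, the latter from under the level of 3 counts. The stromal and endothelial list, nearly all Pecam1 with Kdr at 0, went from 183 to 187 at 0h to 139 to 145 at 24h. The part of these values in the class I results was not tested.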

How the data were processed

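The authors deposited raw read counts per Ensembl gene, in a separate table for each library and with no normalization. STAR, HTSeq 2.0.3, SAMtools 1.3 and the mouse build mm10 were named as the tools and genome, per the submitters' processing notes. Which STAR version, which annotation release and which strand setting were used is not given in the sources used here. Summary rows were set aside: reads in no gene were 5.25% to 9.27% of a library and ambiguous reads 5.00% to 5.50%.

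From the counts, all 8 libraries were fitted in edgeR 4.0.16 (R 4.3.3) with filterByExpr, TMM factors and a quasi-likelihood test by time point, without a block. P-values are two-sided and were adjusted by the Benjamini-Hochberg method over all 14263 genes, with calls under 0.05. The biological coefficient of variation, edgeR's name for the spread between libraries beyond counting noise, was 3.10%. The tests had 4 residual degrees of freedom and a median of 32.1 prior ones, which are drawn from all genes. Alternatives were DESeq2 1.42.0, other scalings and filters, GC and length corrections from transcripts, a test against a fold of 1.5, only the 4 libraries compared, a replicate block and leaving out each library. The procedure was tested on simulated data.

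The members and the 15 other lists were chosen with earlier results of these data known. Named were all members, Klf4, Psmb5, Psmb6 and Psmb7, the 4 genes of each pathway list with the smallest adjusted p at 24h, the most abundant gene of each marker list, and the 3 genes closest in pattern to H2-K1, Nlrc5 and Psmb8. Genes at or near 0 counts were named for that count. Sequences come from RefSeq (GRCm38.p6), gene positions from GENCODE M21.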

Additional observations from a re-analysis of the deposited data

How the results depend on the processing

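Of 900 log2 fold changes of members under alternatives, 809 kept their direction and side of the threshold or were never called, 71 lost a call and 18 gained one. The 2 that reversed were Tapbp at 6h, at -0.14 with the GC and length correction that centres the mean gene (adjusted p = 0.00970), and B2m at 12h, at 0.16 with the one that keeps the level of the library (adjusted p = 0.000662). A further 38 values that were never called changed sign. The test against a fold of 1.5 called 0 members lower at 6h, 12h, 24h and between 6h and 12h, and 0 higher between 12h and 24h, by construction a stricter question. Members called lower at 6h (4) were 1 with library totals, 8 with the centring correction and 2 with the 4 libraries of the comparison alone. Those called lower between 6h and 12h (3) were 1 with library totals and 5 with each GC and length correction. Members called higher were 1 at 6h with each correction, 1 at 12h with the correction that keeps the level, and 1 at 24h with library totals, the stricter filter and each correction, and 0 between 12h and 24h with DESeq2. The cause was not tested.

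Leaving out 1 library at a time, members called lower were 1 to 4 at 6h, 5 to 7 at 12h, 5 to 8 at 24h and 0 to 5 between 6h and 12h, and those called higher between 12h and 24h were 0 to 1. Without 24h replicate 2 the 24h count was 5. An arm left with 1 library is assumed to vary like the others. Same-numbered libraries did not deviate together (correlations from -0.017 to 0.021). Although 6 of 8 libraries correlated best with their own number, the 2 libraries of a time deviate from their mean as mirror images. The 8 are therefore not independent, and that count cannot show pairing. With a replicate block the members called lower stayed at 4, 7 and 8 at 6h, 12h and 24h.

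Over all genes, DESeq2 called 1570 at 6h, 1477 between 6h and 12h and 416 between 12h and 24h, where edgeR called 2613, 2946 and 921. The test against a fold of 1.5 called 213, 600 and 953 at 6h, 12h and 24h. Depth limits Nlrc5 most, and alternatives for the list genes were chosen after seeing the data, as was the longest transcript as length.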
